A study of Homo sapiens with 36 samples.

Results

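PCIF1 knockdown in BE(2)-C cells without all-trans retinoic acid (ATRA) was read across 22855 methylated adenosines, which are all the rows of the deposited table for that comparison, of 100897 rows in the 3 tables of the series. BE(2)-C is an established human neuroblastoma line. Wild-type cells were transfected by lipofection for 24 hours either with an siRNA against PCIF1 (siPcif1, 3 m6ACE libraries) or with a scrambled siRNA (siScram, 3 m6ACE libraries), and neither group received ATRA. The deposited table is named for DMSO, whereas the labels give only the absence of ATRA. PCIF1 was targeted with 1 siRNA. Whether the 3 replicates came from different cultures is not stated, so a p-value here reflects only how far these libraries scatter, which may be technical. The value of a site in a library is its relative methylation level (RML), a ratio whose formula and scaling no label or header states, and the read depth behind it is unknown.

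PCIF1 is the methyltransferase that adds a methyl group to the N6 position of the adenosine next to the mRNA cap, when that first transcribed nucleotide is already 2'-O-methylated, and so makes m6Am. Internal m6A is written by the METTL3 and METTL14 complex, mostly in the sequence context DRACH (D is A, G or T, R is A or G, and H is A, C or T), and is concentrated in coding sequence and 3'UTRs. m6ACE crosslinks an antibody against N6-methylated adenosine to RNA and reads the methylated base at single-base resolution, so it captures both marks. Because RML is not an expression level, the loss of PCIF1 itself could not be checked in these values.

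The marked adenosines at the 5' end are shown first at 10 sites to which the results return, 7 that were lower and 2 that were higher after siPcif1, and 1 from the adrenergic gene DBH. The sense-strand windows were read from RefSeq promoters of GRCh38.p14, and capitals mark the 5 bases that the deposited table gives as the motif, with the methylated adenosine in the middle. Their positions are chr9:125200530-125200558 on the plus strand for RABEPK, chr9:33473906-33473934 on the minus strand for NOL6, chr3:52686018-52686046 on the plus strand for GNL3, chr14:92121971-92121999 on the plus strand for CPSF2, chr16:283150-283178 on the plus strand for PDIA2, chr14:21511326-21511354 on the minus strand for METTL3, chr14:20469392-20469420 on the plus strand for PNP, chr2:130342883-130342911 on the plus strand for IMP4, chrX:48574470-48574498 on the plus strand for RBM3 and chr9:133636349-133636377 on the plus strand for DBH. The adenosine lies at the annotated gene start in PDIA2, METTL3, PNP, IMP4, RBM3 and DBH, 2 nt downstream of it in RABEPK, 4 nt in NOL6, 16 nt in CPSF2 and 112 nt in GNL3. None of the 10 carries a DRACH motif.
RABEPK: cccctccggggtGGAGTcacggctcgcga
NOL6: gcctggagttagGCATTtccgcccacgtg
GNL3: tcgtcagtggctTCAGTtcacacgtggcg
CPSF2: tagtctccagctCCAAAatggcggctgcc
PDIA2: ccacgcgccctgGCAGCaccatgagccgc
METTL3: cagctccaggggTCATTttccggttagcc
PNP: tagaccagtgagCCAACtgtgcgaaccag
IMP4: ctggaggagcccACAGAttctcccggacc
RBM3: gctacgtactctTTATCaatcgtcttccg
DBH: ggaccagagagcTCACCccagccatgccc

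Of the 22855 sites, 14436 lay in coding sequence, 5056 in 3'UTRs, 2147 in 5'UTRs, 311 in non-coding RNA, 178 in introns, 77 in introns of non-coding RNA and 650 outside annotation, by the authors' region column. They fell in 3812 named genes with a median of 2 sites, and 34 genes held at least 50. The genes with most sites were those of the adrenergic neuroblastoma state, CHGA (245 sites), which encodes a dense-core granule protein, and MYCN (156 sites), the amplified oncogene of such tumours, with TUBB (158 sites), a tubulin. Of 11 adrenergic markers, 10 had sites here, 704 in all, against 5 sites in 2 of them in the HEK293T table; 3 blood and 4 epithelial markers had 0 sites here, and of 8 mesenchymal markers only TWIST1 and VIM had any. Sites were clustered, since 28.0% had another site within 5 nt (16.6% in 5'UTRs), so neighbouring sites are not independent. All 1363 sites inside RefSeq promoter windows showed the deposited 5-base motif at the deposited position.

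Most sites had a lower RML after siPcif1. The median RML over all sites was 1.82, 2.76 and 3.29 in the siScram libraries 1 to 3 and 1.51, 1.87 and 1.71 in the siPcif1 libraries. The groups overlapped, because siScram 1 lay below siPcif1 2, and siScram 1 stood apart from the other siScram libraries. As log2(RML + 0.502), where 0.502 is the 5th percentile of the table, the library median averaged 1.61 (SD 0.36, n = 3) under siScram and 1.13 (SD 0.12) under siPcif1, which differ by -0.48 (exact two-sided permutation p = 0.2; the smallest that 3 against 3 libraries allow is 0.1). siPcif1 was below siScram in all 9 pairs of libraries at 6160 sites (27%) and above at 41 sites (0.179%). Once every library was set to a median of 0 (centring), these counts became 1647 (7.21%) and 3602 (15.8%).

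Part of this shift was shared with a constant of each library. Within a library nearly all values were whole-number fractions of 1 constant, which held for 99.7% to 99.8% of 4000 values per library (relative tolerance 2e-08, denominators up to 5000), against 26.5% to 36.0% with another constant. The constants were 1.63, 2.22 and 2.95 in siScram and 1.59, 1.81 and 1.66 in siPcif1, set up to a small whole-number factor by making even numerators and even denominators equally common. What the constant stands for is not stated. On the log2 scale the constants differed by -0.39 between the groups and the median RML by -0.59, so -0.20 remained once each library was divided by its constant. The median RML over the constant was 1.12, 1.24 and 1.11 in siScram and 0.95, 1.04 and 1.03 in siPcif1, and on this scale the groups did not overlap. A change at all sites and a difference in how libraries were scaled cannot be told apart in these ratios. The spread of sites within a library also differed, with the 90th percentile 9.46 to 10.3 times the 10th in siScram and 7.07 to 8.21 times in siPcif1.

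**Figure D1:**
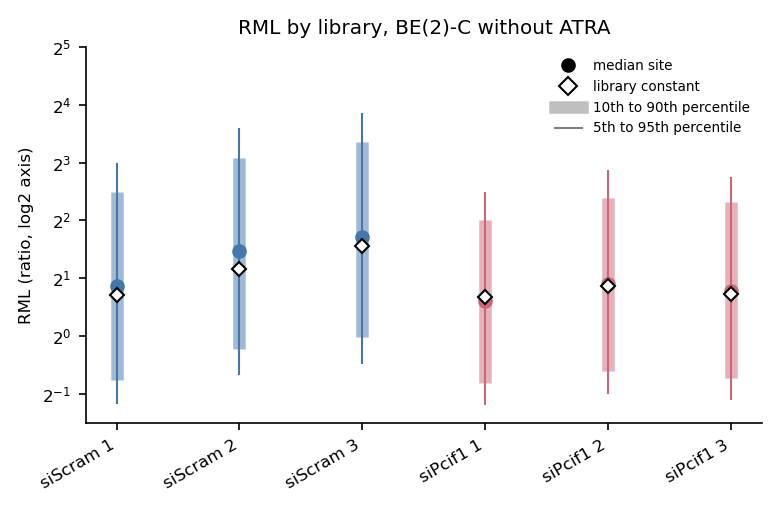
RML on a log2 axis in each of the 6 libraries (blue siScram, red siPcif1), with the median site as a filled circle, the library constant as an open diamond, the 10th to 90th percentile as a thick bar and the 5th to 95th as a thin line. Median and constant move together, from 1.82 and 1.63 in siScram 1 to 3.29 and 2.95 in siScram 3, and the siPcif1 bars are shorter.

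Sites in 5'UTRs were lower after siPcif1 beyond the shift of all sites. Their median RML was 4.31, 6.23 and 7.49 in siScram and 2.90, 3.75 and 3.38 in siPcif1, and the groups did not overlap. The excess of the 5'UTR median over that of coding and 3'UTR sites, a difference within a library that no centring changes, was 1.13, 1.13 and 1.17 in siScram and 0.81, 0.91 and 0.88 in siPcif1 on the log2 scale. It went from 1.14 ± 0.020 (SD, n = 3) to 0.87 ± 0.051, a difference of -0.27 (exact permutation p = 0.1). Relative to the median of all sites, 5'UTR sites differed by -0.25, introns of coding genes by -0.15, non-coding RNA by -0.15, 3'UTRs by -0.02 and coding sequence by 0.03 (exact permutation p = 0.1 each, except 0.4 for 3'UTRs). As deposited, 37.0% of 5'UTR sites had every siPcif1 value under every siScram value, and after centring 14.4% were under and 5.64% over without overlap, against the 7.21% and 15.8% of all sites.

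The base before the adenosine went with the size of the 5'UTR difference. m6Am at cap-adjacent positions is known mostly from the context in which a cytosine precedes the adenosine, the initiator-like context of transcription starts. The 1260 5'UTR sites without DRACH that followed a C had a median RML of 5.39, 7.85 and 9.85 in siScram and 3.61, 4.52 and 4.14 in siPcif1, a centred change of -0.32 (exact permutation p = 0.1). The centred change was -0.25 after T (382 sites), -0.27 after G (260 sites) and -0.09 after A (109 sites; exact permutation p = 0.2, groups overlapping), and -0.11 at the 136 5'UTR sites with DRACH. Within the C context it was -0.40 in GCA, -0.30 in TCA, -0.23 in CCA and -0.14 in ACA. These are differences of class medians. The median of the centred site changes was -0.19 in GCA, -0.19 in TCA, -0.22 in CCA and -0.11 in ACA, so GCA did not lead on that measure. The same preceding bases made little difference inside transcripts, where non-DRACH coding and 3'UTR sites differed by 0.04 after C, -0.02 after T, 0.07 after G and 0.04 after A. The 5'UTR contexts without DRACH also differed in level, with a centred siScram median of 1.38 after C, 1.07 after T, 0.58 after G and 0.42 after A. Differences between these contexts were not tested, nor were the contexts compared among sites of like level.

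Internal DRACH sites, the METTL3 class, lay close to other internal sites in their change. In coding sequence the median RML of 2594 DRACH sites was 2.68, 4.06 and 4.73 in siScram and 2.12, 2.64 and 2.50 in siPcif1, a centred change of -0.06. The 1784 DRACH sites in 3'UTRs differed by 0.01 after centring (exact permutation p = 0.8), and the 11842 coding sites without DRACH by 0.06. The difference between internal DRACH and non-DRACH sites was 0.60 ± 0.020 in siScram and 0.54 ± 0.035 in siPcif1, a change of -0.07 (exact permutation p = 0.1). That direction turned when sites of like level were compared (0.04) and under quantile normalization (0.05). Among the 2 commonest DRACH forms, GGACT (971 sites) differed by -0.03 and GGACA (863 sites) by -0.06 after centring, where these counts hold coding and 3'UTR sites only.

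**Figure D2:**
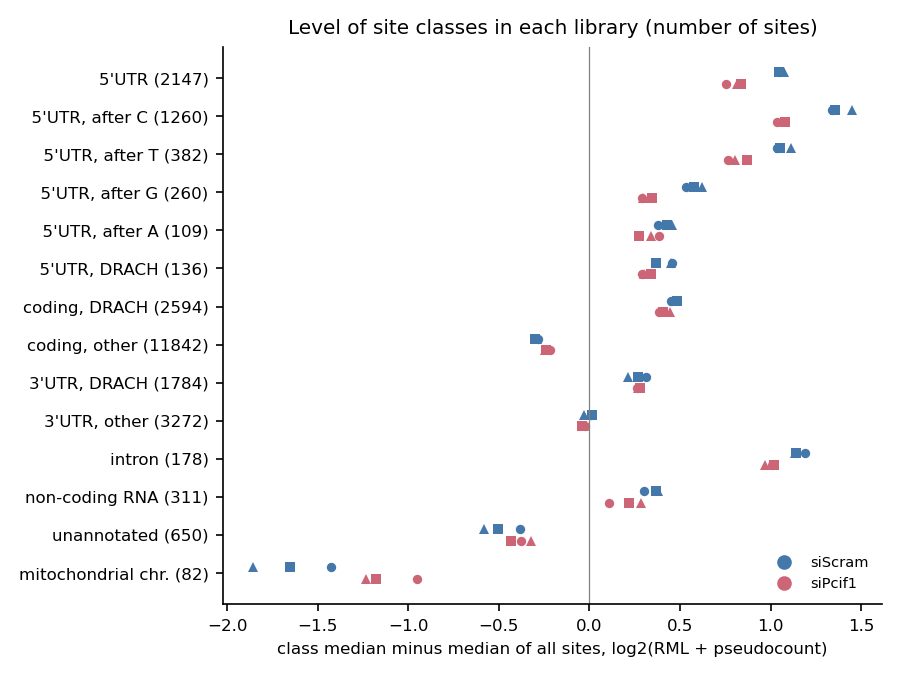
Median log2(RML + pseudocount) of each site class minus that of all sites, in each library (blue siScram, red siPcif1; circle, square and triangle are replicates 1 to 3), with the number of sites in brackets. The 5'UTR classes after C, T and G lie high in siScram and lower in siPcif1 without overlap, whereas within each coding or 3'UTR class the groups lie close together.

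Downstream of the annotated start, the 5'UTR difference was larger within 10 nt than farther away, without a test between the distances. The 442 5'UTR sites at the RefSeq gene start had a median RML of 8.53, 12.1 and 14.8 in siScram, the highest of the distance classes, and a centred change of -0.29. It was -0.34 for the 280 sites 1 to 10 nt downstream, -0.17 for 378 sites at 11 to 50 nt, -0.02 for 89 sites at 51 to 100 nt, -0.06 for 260 sites over 100 and up to 500 nt and -0.17 for 482 sites farther downstream. Upstream of the annotated start, the 174 sites within 100 nt differed by -0.28 and the 20 sites farther upstream by -0.26 (exact permutation p = 0.3). Of the 777 non-DRACH 5'UTR sites within 10 nt of the start, 18.4% had all siPcif1 libraries below all siScram libraries after centring and 2.70% had them above; of the 645 that lay over 100 nt from it, 12.1% and 9.77% did. From the start downstream, the centred siScram median of the classes was 1.97, 1.67, 0.49, -0.05, 0.23 and 0.71, so distance went together with level. The distance classes were not compared among sites of like level. The distance is to the outermost start of the gene in RefSeq, so sites of downstream promoters fall in the far classes.

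The change after siPcif1 also went with the level of a site, in all regions. Sites were split by mean level into 10 equal bins. In the lowest bin coding and 3'UTR sites differed by 0.32 and 5'UTR sites by 0.25 after centring, and in the highest bin by -0.23 and -0.33. In all 10 bins the 5'UTR value was the lower, and 886 of the 2147 5'UTR sites lay in the highest bin. Compared with internal sites of like level, an alternative chosen after seeing the data, the 5'UTR excess differed by -0.07 in place of -0.27 (exact permutation p = 0.1), and under quantile normalization by -0.10. Like level here means the same bin, and level was not fully matched within the highest bin. There the siScram median on the log2 scale averaged 3.79 for 5'UTR sites and 3.31 for internal sites. Without a pseudocount the median change over all sites still ran from -0.30 in the lowest bin to -0.79 in the highest. The 82 sites on the mitochondrial chromosome, whose mRNAs carry no cap, were low in RML (0.36, 0.54 and 0.55 in siScram and 0.54, 0.55 and 0.44 in siPcif1) and differed by 0.52 after centring, with 98.8% above without overlap. Of all sites 15.8% lay above, and of those in the lowest bin 56.5%.

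**Figure D3:**
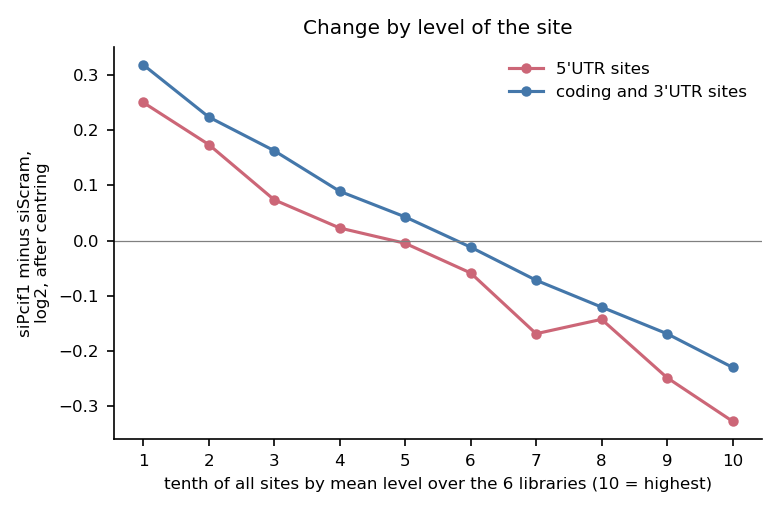
Change after siPcif1 on the centred log2 scale (vertical axis) in each of 10 equal bins of all sites by mean level over the 6 libraries (horizontal axis), for 5'UTR sites (red) and coding and 3'UTR sites (blue). Both lines run from above 0 at low sites to below 0 at high sites, and the 5'UTR line lies below the other in each bin.

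Every site of the table was called by the authors (site p-value of at most 0.05) in at least 1 group, and which group it was called in went with its change. Sites called in siScram only numbered 11461, those called in both groups 9330 and those called in siPcif1 only 2064. Among 5'UTR sites the centred change was -0.33 for the 1063 called in siScram only, -0.18 for the 984 called in both and 0.32 for the 100 called in siPcif1 only. For coding and 3'UTR sites the values in that order were -0.06, 0.07 and 0.29. The table therefore holds over 5 times as many sites selected for signal in siScram alone as for signal in siPcif1 alone.

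In the test of each site, limma called 843 of 22855 sites lower (3.69%) and 5 higher (0.0219%) as deposited (Benjamini-Hochberg threshold 0.05); unadjusted, 5985 and 18 passed 0.05. After centring it called 0 lower (0%) and 0 higher (0%), with 1126 lower and 2921 higher unadjusted. In the authors' deposited table the p-value of the fold change was at most 0.05 at 5990 sites higher in siScram (26.2%) and 33 higher in siPcif1 (0.144%). After Benjamini-Hochberg adjustment of these p-values 1 and 0 sites passed 0.05. Before it, the 5990 sites included 604 of the 843 (71.6%), an overlap of 2 tests on the same 6 libraries. The limma fit as deposited shared its variance almost wholly between sites (91420 total degrees of freedom, against 10.7 after centring). A standard error as deposited therefore follows the level of a site rather than the scatter of its own libraries. The count of lower sites was 12188 without siScram 1, 78 without siScram 2, 62 without siScram 3, 40 without siPcif1 1, 160 without siPcif1 2 and 84 without siPcif1 3.

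The 843 sites lay in 642 genes. 5'UTRs held 184 of them, 21.8% against 9.39% of all sites, coding sequence 454 and 3'UTRs 154, and 15.3% carried a DRACH motif against 20.7% of all sites. The authors had called 785 of the 843 in siScram only, 53 in both groups and 5 in siPcif1 only. For the 184 in 5'UTRs these numbers were 166, 17 and 1. Most of the 843 thus entered the table only through siScram, the group in which they were high. Among sites called in both groups 0.568% were called lower, against 6.85% of those called in siScram only. The median change of the 843 sites was -1.26 on the log2(RML + 0.502) scale, with a median of the sites' mean RML of 5.58 in siScram and 1.87 in siPcif1. Of the 843, which were picked as lower from these same values, siPcif1 lay below siScram without overlap at 714 as deposited. After centring it did so at 509 of the 843, beside 27% and 7.21% of all sites on the 2 scales. The 5 higher sites were in SOX2-OT (an intron of a non-coding RNA), ACE and H2AFX (3'UTRs), and FADS2 and TTC8 (5'UTRs). ACE, the angiotensin-converting enzyme, had an RML of 0.37, 0.32 and 0.36 in siScram and 1.07, 0.75 and 1.04 in siPcif1 (log2 change 0.76 ± 0.16, SE; limma adjusted p = 0.00101). The SOX2-OT, ACE and H2AFX groups did not overlap, while those of FADS2 and TTC8 overlapped, with siPcif1 1 high in both and siPcif1 2 of TTC8 within the siScram values.

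Among 5'UTR sites above the median level that were called lower and did not overlap on either scale, the 6 largest decreases were in RABEPK, FOXRED1, NOL6, GNL3, CPSF2 and PDIA2. RABEPK, an effector of the small GTPase RAB9 in transport from endosomes, had an RML of 21.2, 24.5 and 17.7 in siScram and 2.38, 3.16 and 2.21 in siPcif1, so every siScram library was above every siPcif1 library by a wide margin. Its mean RML was 8.17-fold lower and its log2 change -2.81 ± 0.46 (SE; limma adjusted p = 1.07e-05). FOXRED1, an assembly factor of mitochondrial complex I, had 29.3, 12.6 and 25.1 against 2.54, 3.36 and 2.49 at position 126269171 of chromosome 11, 17 nt past the start, a log2 change of -2.72 ± 0.47 (limma adjusted p = 1.76e-05). A second FOXRED1 site 14 nt upstream, at position 126269157, behaved alike, with 29.3, 15.6 and 22.2 against 2.78, 4.82 and 3.31. These neighbours share a transcript end and are not independent.

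Both nucleolar genes of the group showed high and variable siScram values. NOL6, a protein of the small-subunit processome, had 13.0, 40.0 and 56.1 in siScram and 4.24, 2.03 and 8.84 in siPcif1 (log2 change -2.70 ± 0.52; limma adjusted p = 0.000311). GNL3, the nucleolar GTPase nucleostemin, had 27.7, 46.7 and 22.9 against 3.86, 5.42 and 5.80 (log2 change -2.53 ± 0.53; limma adjusted p = 0.00125). CPSF2, which belongs to the complex that recognises the poly(A) signal, had 5.30, 35.6 and 97.5 against 3.97, 5.06 and 4.14, so siScram 1 lay just above the siPcif1 libraries (log2 change -2.49 ± 0.51; limma adjusted p = 0.00101). PDIA2, a protein disulfide isomerase, had 16.3, 20.0 and 35.5 against 1.59, 7.23 and 4.14 (log2 change -2.46 ± 0.49; limma adjusted p = 0.000566). After centring these 6 sites differed by -1.97 to -2.33, and none was called (limma adjusted p = 0.187 to 0.218).

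Under the same rule, the largest coding and 3'UTR decreases were as steep as some of those in 5'UTRs, with wide spread in siScram. VASN, a transmembrane protein that binds TGF-beta, had 22.8, 22.2 and 10.3 in siScram and 1.82, 1.36 and 5.80 in siPcif1 at position 4382068 of chromosome 16 (log2 change -2.58 ± 0.45; limma adjusted p = 2.45e-05). INHBE, the inhibin beta E chain, had 10.9, 9.45 and 6.21 against 1.59, 2.26 and 0.83 at position 57456459 of chromosome 12 (log2 change -2.21 ± 0.38; limma adjusted p = 1.74e-05), with a narrower spread in both groups. SPEN, a transcriptional repressor, had 4.19, 26.7 and 17.7 against 2.38, 2.71 and 2.07. RNF150, a RING finger protein, had 13.0, 77.8 and 29.5 against 3.97, 9.04 and 6.63, and the 3'UTR site of AP4M1, a subunit of adaptor complex 4, had 6.25, 51.2 and 13.6 against 2.95, 4.13 and 3.13. USP11, a deubiquitinase, had 20.6, 40.0 and 87.2 against 11.6, 8.64 and 10.3 (limma adjusted p = 0.0405). The USP11 adenosine is annotated as coding in the deposited table but lies 2 nt from the RefSeq gene start.

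The 4 largest intronic and non-coding decreases were chosen in the same way, only among sites with groups apart on both scales. In all, 9 of 178 intronic sites (5.06%), 18 of 311 in non-coding RNA (5.79%) and 2 of 77 in its introns (2.60%) were called lower. Of all sites 3.69% were. MAP2, a neuronal microtubule-associated protein, had an intronic site at position 209579336 of chromosome 2 with 16.3, 11.9 and 56.1 in siScram and 4.37, 1.51 and 2.76 in siPcif1 (log2 change -2.84 ± 0.47; limma adjusted p = 1.07e-05). FABP5, a fatty acid binding protein, had 6.52, 34.5 and 42.8 against 3.71, 5.59 and 3.52. CHD4, the helicase of the NuRD complex, had 4.35, 4.08 and 19.2 against 2.12, 2.03 and 0.95, and the pseudogene ZSCAN12P1 6.52, 11.7 and 10.6 against 0.72, 3.01 and 2.04. None of the 4 was called after centring (limma adjusted p = 0.217 each).

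Few sites lay higher in siPcif1 on both scales, and those named here, which lie above the median level, were not called. IMP4, a component of the U3 small nucleolar ribonucleoprotein, had the largest such increase after centring (1.51 on the log2 scale), with an RML of 4.19, 4.89 and 3.94 in siScram and 11.1, 11.3 and 6.39 in siPcif1 at its start (log2 change 1.02 ± 0.44; limma adjusted p = 0.137). A 5'UTR site of EEF1D, a subunit of translation elongation factor 1, had 2.21, 1.64 and 2.55 against 5.07, 4.91 and 3.59 (limma adjusted p = 0.101). RBM3, a cold-inducible RNA-binding protein, had 6.78, 7.93 and 9.05 against 12.5, 9.46 and 9.79 at its start (limma adjusted p = 0.52). The coding DRACH site of CHPF, a chondroitin polymerizing factor, had 2.10, 3.73 and 2.69 against 3.97, 4.03 and 4.78 (limma adjusted p = 0.296). The 4 were chosen among sites whose groups did not overlap, and the margin was narrow in RBM3 and CHPF.

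**Figure D4:**
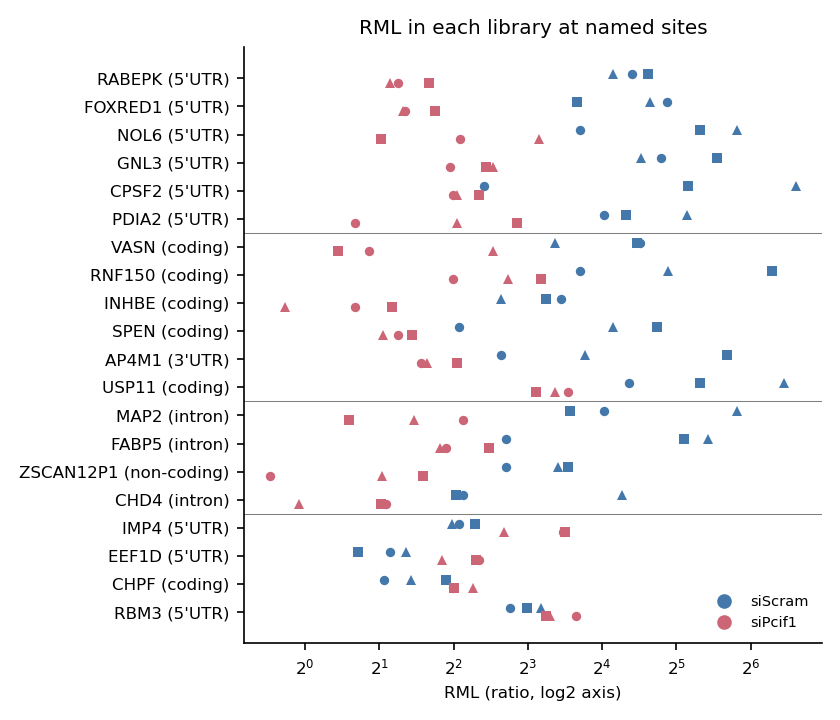
RML on a log2 axis in each library (blue siScram, red siPcif1; circle, square and triangle are replicates 1 to 3) at the sites with the largest decreases in 5'UTRs, in coding sequence and 3'UTRs and in introns or non-coding RNA, and with the largest increases, in 4 blocks from top to bottom. The siScram values of 1 site can differ widely, as from 5.30 to 97.5 in CPSF2. The sites drawn were chosen among those whose groups do not overlap.

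Averaged over the sites of each gene, 1848 of the 1861 genes with at least 3 sites had a lower mean RML after siPcif1. limma called 28 genes lower (1.5%) and 0 higher (0%) as deposited (unadjusted, 755 and 0), and siPcif1 lay below siScram without overlap in 684 genes (36.8%) and above in 0 (0%). The count of lower genes rested on single libraries, with 1763 without siScram 1 and 0 without siPcif1 1, siPcif1 2 or siPcif1 3. After centring it called 0 lower (0%) and 0 higher (0%), with 143 lower and 207 higher unadjusted, 199 genes below without overlap (10.7%) and 240 above (12.9%). INHBE, with 4 sites, came nearest to a call after centring, with a mean of 1.59 ± 0.17 in siScram (SD, n = 3) and 0.47 ± 0.025 in siPcif1 (change -1.12; limma adjusted p = 0.0521). On the same scale NUDCD2, a NudC domain protein, differed by -0.61 over 3 sites, SRRD by -0.63 over 15 sites and ATF1, a bZIP transcription factor, by -0.77 over 3 sites. FKBP8, a mitochondrial outer membrane immunophilin, differed by 0.52 over 9 sites, RUNDC3A by 0.58 over 3 sites and KCTD20 by 0.46 over 5 sites, and the limma adjusted p was 0.094 to 0.0976 for these 6. As deposited, FKBP8, RUNDC3A and KCTD20 differed by 0.04, 0.10 and -0.03 with overlapping groups, so they stood higher only after centring. These 3 had gene means below the library median in siScram, and the 4 with lower values had means above it.

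Sites of the same gene were compared with each other, which takes out a shift that a library or a gene adds on the log2 scale, though a library factor remains in part through the pseudocount. In the 656 genes with a 5'UTR site and a coding or 3'UTR site, the median of the within-gene difference was 1.52, 1.64 and 1.75 in siScram and 1.17, 1.31 and 1.23 in siPcif1, so the 5' end was lower relative to the body of the transcript in every siPcif1 library. The groups differed by -0.40, from 1.64 ± 0.11 (SD, n = 3) to 1.24 ± 0.070 (exact permutation p = 0.1). The difference was lower after siPcif1 in 531 genes (80.9%), with groups that did not overlap in 176 (26.8%), and higher without overlap in 14 (2.13%). Gene by gene, limma called 0 lower (0%) and 0 higher (0%); unadjusted, 127 and 9 passed 0.05, and the smallest adjusted p was 0.121. With library constants removed, an alternative chosen after seeing the data, the groups differed by -0.33. Against internal sites of like level they differed by -0.13 (exact permutation p = 0.1).

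Named here are the 5 genes with the largest negative within-gene change among those whose groups did not overlap and whose unadjusted p was at most 0.05, and limma called none of them. FOXRED1 had a difference of 3.04, 1.68 and 1.98 in siScram and 0.59, 0.80 and -0.17 in siPcif1 over 2 5'UTR and 14 internal sites, and the groups did not overlap (change -1.83; limma adjusted p = 0.121). RHNO1, a DNA damage checkpoint protein, differed by -1.80, from an RML of 13.0, 35.6 and 39.9 to 1.91, 9.64 and 5.80 at its 5'UTR site. SON, a splicing factor of nuclear speckles, had 1 5'UTR site with 17.9, 28.9 and 35.5 against 11.1, 2.26 and 6.63 and 58 internal sites, and its difference differed by -1.64. UBE2G2, a ubiquitin-conjugating enzyme of ER-associated degradation, differed by -1.61, with 5.98, 33.4 and 25.6 against 3.63, 4.27 and 4.46 at its 5'UTR site. For PNP, purine nucleoside phosphorylase, the change was -1.56 over 1 5'UTR and 3 internal sites. The limma adjusted p of RHNO1, SON, UBE2G2 and PNP lay between 0.149 and 0.179.

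**Figure D5:**
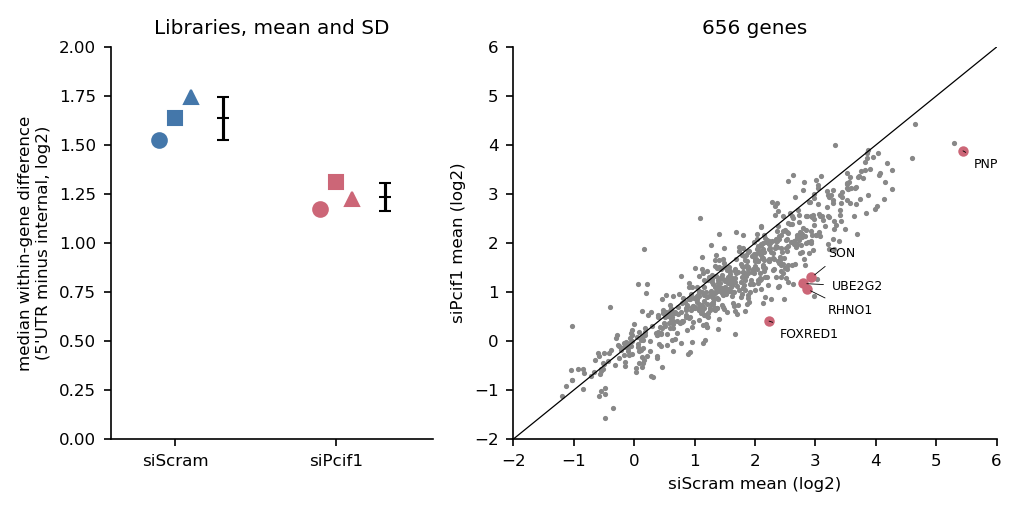
Left, the median over 656 genes of the mean 5'UTR minus the mean coding and 3'UTR log2(RML + pseudocount) in each library, with mean and SD (n = 3) per group; right, the same difference per gene as the siPcif1 mean against the siScram mean, with the line of equality and the 5 genes of largest negative change among those with groups that did not overlap named. The siPcif1 libraries lie at 1.17 to 1.31 against 1.52 to 1.75, and 531 of the 656 genes lie below the line.

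The same within-gene measure was smaller here than in HEK293T and larger than in BE(2)-C with ATRA, but neither difference passed its test. It differed by -0.24 in BE(2)-C with ATRA (607 genes; ATRA at 10 uM for 4 days) and by -0.72 in HEK293T (3471 genes). The change with ATRA differed from that without by 0.16 (exact permutation p = 0.255, also after adjustment over both comparisons), and that of HEK293T by -0.32 (exact permutation p = 0.085, adjusted p = 0.17). The tables share no m6ACE library and were made separately, so only differences within a library were set side by side.

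Of the sites listed here, 7800 (34.1%) were also in the table with ATRA, of which they form 37.1%, and 7106 (31.1%) in that of HEK293T, of which they form 12.5%. The 5'UTR sites that limma called lower here had in HEK293T a median change of -0.74 on that table's centred scale (148 shared sites), against -0.60 for all 1605 shared 5'UTR sites. With ATRA the values were -0.27 (76 sites) and -0.25 (1263 sites). Coding and 3'UTR sites called lower here differed by 0.10 in HEK293T (115 sites) and by 0.06 with ATRA (114 sites), against 0.13 and -0.03 for all shared internal sites. So the internal sites called lower here were not lower on the centred scale of either other table, while 5'UTR sites were lower there whether called here or not. These are descriptions of sites that share libraries, and no test was made of them.

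Single 5' ends followed this unevenly. At the METTL3 start, mean RML went from 21.5 ± 8.4 (SD, n = 3) to 5.68 ± 4.5 here and from 16.1 ± 6.1 to 5.25 ± 4.6 in HEK293T. The FOXRED1 site went from 9.51 ± 4.3 to 14.6 ± 5.7 with ATRA and from 7.14 ± 1.1 to 2.71 ± 1.4 in HEK293T, where the difference with ATRA is within the spread of its libraries. RABEPK had 6.40 ± 4.5 and 5.73 ± 1.4 in HEK293T, and the PDIA2 start 51.1 ± 17 and 22.1 ± 8.0 with ATRA.

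Among the genes of the study's question, only METTL3 had a 5'UTR site that was called lower. Its start site had an RML of 26.1, 26.7 and 11.8 in siScram and 1.06, 6.03 and 9.94 in siPcif1, with siScram 3 just above siPcif1 3 and the groups overlapping after centring (log2 change -2.13 ± 0.49; limma adjusted p = 0.00428, and 0.244 after centring). The other METTL3 site, in coding sequence, had a log2 change of -0.53 and was not called. The within-gene difference of METTL3 was 3.37, 3.24 and 1.66 in siScram and -0.21, 1.34 and 2.36 in siPcif1, with overlap (limma adjusted p = 0.249). PCIF1 had 1 coding site, at position 45947700 of chromosome 20, with 3.64, 5.86 and 8.33 against 5.56, 4.97 and 6.08, so the groups overlapped. PCF11, a factor of transcript cleavage and termination, also had 1 coding site, with 4.42, 4.45 and 20.7 against 1.39, 6.15 and 15.7. FTO, a demethylase that removes m6A and m6Am, had 0 sites in this table. Of the 156 MYCN sites, 153 had a lower value in siPcif1, 35 without overlap, and 1, in an intron, was called lower. After centring 10 lay below and 57 above without overlap. Over all sites, 94.5% were lower by the deposited fold change, 27% were lower without overlap and 3.69% were called lower. After centring 7.21% of all sites lay below and 15.8% above without overlap. The gene mean of MYCN moved from 1.06 ± 0.33 to 0.68 ± 0.090 as deposited (log2 scale), and from -0.55 ± 0.034 to -0.45 ± 0.030 after centring, where siPcif1 lay above siScram without overlap.

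In the methylation machinery and the cap proteins the shares of sites called lower were 2.08% for writers, 0% for readers and erasers and 3.92% for cap proteins, beside 3.69% of all sites. Of 48 sites in 7 m6A writer genes 1 was called lower (that of METTL3), and of 137 sites in 6 genes of readers and erasers 0 were called and 13 were lower and 0 higher at an unadjusted limma p of 0.05. RBM15, an adaptor of the writer complex, had 5.01, 8.01 and 17.4 against 2.48, 4.57 and 3.31 at a coding site without overlap (limma adjusted p = 0.0558). Of 51 sites in 8 genes of cap methylation, cap binding and decapping 2 were called lower. These were coding sites of LARP1, which binds the cap of TOP mRNAs (1.10, 1.67 and 2.88 against 0.72, 0.72 and 1.01; limma adjusted p = 0.0445), and of EIF4E, the cap-binding translation factor (1.12, 1.42 and 1.93 against 0.54, 0.74 and 0.84; limma adjusted p = 0.0461). The median site change after centring was -0.10 for writers, 0.20 for readers and erasers and 0.07 for cap proteins, beside 0.05 for all sites.

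Of 86 sites in 20 genes of cleavage, termination and the Integrator complex, 5 were called lower (5.81%, beside 3.69% of all sites), led by CPSF2 and by CPSF3L (now INTS11), the Integrator endonuclease, whose 5'UTR site had 5.87, 11.6 and 13.3 in siScram and 1.48, 2.61 and 5.30 in siPcif1 (limma adjusted p = 0.0123). Of 100 sites in 30 genes of RNA polymerase II, Mediator and general factors, 1 was called, a coding site of TAF7 (1.65, 3.00 and 3.07 against 0.73, 1.10 and 1.32; limma adjusted p = 0.0342). POLR2E, a polymerase subunit, had a tight start site with 8.56, 8.16 and 8.60 against 3.67, 2.84 and 3.20, without overlap but short of the threshold (limma adjusted p = 0.0566).

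Gene groups whose sites sat low in RML had positive median changes after centring. Cytosolic ribosomal proteins (702 sites in 63 genes) had a median level of 0.51 in siScram, against 1.61 for all sites, and a median site change of 0.24 after centring, with 2.56% below and 50.9% above without overlap. Of all sites 7.21% lay below and 15.8% above. In the lowest level bin 56.5% of sites lay above, and in the next 35.9%. Glycolysis (141 sites, 12 genes; level 0.32) had 0.33, tubulins (335 sites, 8 genes; level 0.67) 0.28, translation factors (470 sites, 39 genes; level 0.85) 0.21 and chaperones (470 sites, 31 genes; level 0.82) 0.16. As deposited, the median site change was -0.24 for cytosolic ribosomal proteins, -0.16 for glycolysis and -0.20 for tubulins. It was -0.28 for translation factors and -0.32 for chaperones. The members with the smallest p as deposited included lower 5'UTR sites. The 5'UTR site of PGK1, phosphoglycerate kinase, had 6.11, 3.81 and 5.07 against 1.59, 2.26 and 1.16 (limma adjusted p = 0.014), that of RPL15 17.1, 23.4 and 25.1 against 11.9, 10.4 and 1.47 (limma adjusted p = 0.0299) and that of HSPD1, the mitochondrial chaperonin, 5.78, 5.93 and 6.89 against 2.17, 2.77 and 1.54 (limma adjusted p = 0.0214). In all 3 the groups did not overlap as deposited.

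Zinc finger genes named ZNF, mostly transcriptional repressors, had the largest share of calls among the listed groups. Of 281 sites in 67 genes 26 were called lower (9.25%, beside 3.69% of all sites) and 0 higher, at a median level of 2.30 in siScram, and their median site change after centring was -0.17. ZNF263 had a coding site with 1.63, 3.81 and 4.22 against 0.79, 0.99 and 0.66 (limma adjusted p = 0.000802), and ZNF536 one with 2.44, 22.2 and 2.53 against 0.60, 1.45 and 1.24, where siScram 2 stood far above the rest. Only 22 of the 281 sites were in 5'UTRs. Of the 32 ZNF genes with at least 3 sites, 28 had a negative change after centring, beside 984 of all 1861 genes.

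Among the neuroblastoma genes, the adrenergic list (431 sites, 17 genes) had 3 sites called lower (0.70%, beside 3.69% of all sites), and the median centred change was 0.10. DBH, the enzyme that makes noradrenaline, had its start site at 3.67, 3.25 and 5.91 in siScram and 1.30, 1.81 and 1.99 in siPcif1, without overlap on either scale (limma adjusted p = 0.0458). The start region of SCG2, a granin of dense-core vesicles, had 4.40, 4.61 and 8.76 against 2.22, 2.61 and 2.08 (limma adjusted p = 0.0574), while the 527 sites of 5 granin genes had a median change of 0.15 and 0 calls, with 43 lower and 1 higher unadjusted. Of 319 sites in 18 neurite cytoskeleton genes 4 were called (1.25%), among them the MAP2 intron and a coding site of NEFM, a neurofilament (0.73, 0.86 and 1.65 against 0.31, 0.53 and 0.55; limma adjusted p = 0.0131). Of 43 sites in 7 retinoic acid response genes 0 were called, with 5 lower unadjusted, and the 3'UTR DRACH site of RARA, the retinoic acid receptor, had 2.72, 4.20 and 4.14 against 1.82, 2.29 and 1.55 (limma adjusted p = 0.136).

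In 7 other groups of growth and housekeeping genes between 0.83% and 3.96% of sites were called lower, beside 3.69% of all sites. Nucleolar and ribosome biogenesis genes had 12 called of 389 sites, with NOL12, an exonuclease of rRNA processing, at 1.09, 3.11 and 2.95 against 0.60, 0.99 and 0.27 (limma adjusted p = 0.000122). Nuclear genes of oxidative phosphorylation had 7 of 220, with the start of NDUFS1, a complex I subunit, at 2.04, 7.41 and 10.6 against 1.32, 2.32 and 1.36, overlapping in siScram 1. Mitochondrial ribosomal proteins had 3 of 342, led by MRPL27 at 3.53, 6.67 and 3.45 against 1.59, 1.03 and 0.95 (limma adjusted p = 0.00164). The proteasome had 2 of 119, led by the start of PSMA5 at 6.52, 2.37 and 16.5 against 2.04, 1.08 and 1.99 (limma adjusted p = 0.00186). Splicing factors had 4 of 480, led by SNRPA1 at 10.3, 8.45 and 28.1 against 3.18, 2.84 and 3.87 (limma adjusted p = 0.0055), DEAD and DEAH helicases 8 of 202 and solute carriers 12 of 316, led by SLC39A9, a zinc transporter, at 16.3, 5.46 and 7.18 against 2.02, 2.26 and 1.49 (limma adjusted p = 0.000734).

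Of 110 histone sites in 28 genes 2 were called lower (1.82%, beside 3.69% of all sites) and 1 higher (0.0219% of all sites). The start of HIST1H2AM (now H2AC17) had 8.15, 8.90 and 10.3 in siScram and 1.77, 2.71 and 3.31 in siPcif1 (limma adjusted p = 0.00795), with groups far apart. The 3'UTR site of H2AFX (now H2AX) had 0.24, 0.35 and 0.30 against 0.94, 0.75 and 0.61 (log2 change 0.66 ± 0.14; limma adjusted p = 0.0012), at a low level. Small non-coding RNAs gave 6 sites in 5 genes, and SNORD3D, a U3 small nucleolar RNA, had 0.72, 0.52 and 0.64 against 1.14, 0.91 and 0.85, higher without overlap (limma adjusted p = 0.179). SNORD3D and SNORD3B-1 are near-identical copies, so reads may have been split between them.

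The 5 sites named here among those with the highest RML in siScram were 5'UTR sites, and none was called. HSBP1, a small protein that binds heat shock factor, had 35.9, 106.8 and 106.4 in siScram and 27.0, 19.4 and 64.6 in siPcif1, with overlap. PNP had 52.3, 49.5 and 141.0 against 12.5, 27.4 and 22.6 at its start, without overlap on either scale (log2 change -1.83 ± 0.72; limma adjusted p = 0.111). UNC45A, a myosin chaperone, had 35.9, 31.1 and 115.2 against 36.6, 32.5 and 15.7, with overlap. HIST1H4J (now H4C11) had 40.7, 23.9 and 109.3 against 11.5, 16.9 and 16.6, and ZNF830 28.5, 51.2 and 85.7 against 27.0, 9.04 and 26.5, both without overlap as deposited and with overlap after centring. At this level the 3 libraries of a group could differ by several fold. The limma standard error of the log2 change, which follows the level of a site, was 0.66 to 0.78 for the 5 sites. It was 0.10 for a 5'UTR site of MYCN, which had an RML of 0.23, 0.43 and 0.40 in siScram and 0.12, 0.22 and 0.26 in siPcif1. Those MYCN values all lie below the pseudocount of 0.502.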

How the data were processed

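The deposited table gives 1 row per methylated adenosine, with an RML per library, a ratio made by the authors whose formula is not stated, group means and a deposited log2 fold change between them, and deposited p-values per group and for the fold change, per the file headers. Every row had a group p-value of at most 0.05 in siScram or siPcif1. Depth is unknown, and the submitters' processing notes name bcl2fastq 2.20, cutadapt 3.7, Bowtie2, STAR, DESeq2 and the build hg38, with no roles. Columns for 6 m6ACE libraries were used, with 0 further columns of samples; 42 gene cells turned into dates were left unnamed. Values were analysed as log2(RML + 0.502), which understates the change of low sites, and a filter on sites with RML of 0 in over 3 libraries took out 0.

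limma 3.58.1 in R 4.3.3 (lmFit and eBayes with trend, Benjamini-Hochberg at 0.05) tested sites, gene means over at least 3 sites and within-gene differences, on all 6 libraries as deposited and centred on medians; scripts were tested on simulated data. Class medians and contrasts of single values used exact two-sided permutation over 20 arrangements of libraries. Tables were handled in Python 3.11.15 with numpy 2.4.6 and pandas 2.3.3. Named sites lay above the median level, 1 per gene. They were the 6 largest 5'UTR decreases, 6 coding or 3'UTR and 4 intronic or non-coding decreases that were called with groups apart on both scales, up to 5 of the largest increases with groups apart, and 5 of the highest siScram means. Features passed over are not reported here. Named genes were 4 lower and 3 higher by smallest centred p, the 5 largest negative within-gene changes with groups apart and an unadjusted p of at most 0.05, the study genes (MYCN, FTO, METTL3, PCF11, PCIF1), and up to 2 members with smallest p of each listed group. Members and lists were chosen with earlier results of these data known. Alternatives were another pseudocount, level filters, normalizations, variance models, a replicate block and leaving out each library.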

Additional observations from a re-analysis of the deposited data

How the results depend on the processing

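Depth behind single values is unknown, the change of a site went with its level, and a change at all sites and the scaling of libraries cannot be told apart; the cause of each move below was not tested. Leaving out 1 library gave 40 to 12188 sites lower and 2 to 22 higher as deposited, 0 to 89 lower and 0 to 903 higher after centring, 0 to 1763 genes lower and 0 higher, 0 to 17 genes lower and 0 to 97 higher after centring, and 0 genes in either direction within genes. The highest counts all came without siScram 1. The same alternatives moved the all-site change between -0.68 and -0.33, the 5'UTR excess between -0.29 and -0.25, the excess of 5'UTR non-DRACH over internal DRACH sites between -0.24 and -0.20 (main value -0.23), internal DRACH between -0.08 and -0.05, intronic sites against internal ones between -0.19 and -0.16 (main value -0.17), and the within-gene difference between -0.46 and -0.35.

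For sites, no variance trend gave 1 lower and 0 higher, adjusting the fold-change p-values that the authors deposited gave 1 and 0, sites called in both groups 14 and 0, sites above the median level 1 higher, and library constants removed 0 and 0. For genes lower as deposited the count was 13 with the pseudocount at the median, 64 above the median level, 0 over sites called in both groups, 411 without the trend, 17 with robust variances, 45 by the median over sites, 0 with at least 5 sites, 13 without 5'UTR sites and 1 with library constants removed. After centring, 1 gene was lower above the median level, without the trend, with robust variances and without 5'UTR sites, 1 was lower and 2 higher over sites called in both groups, and 1 lower and 5 higher with at least 5 sites.

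The 5'UTR excess was -0.19 above the median level, -0.10 under quantile normalization and -0.069 at like level; against internal DRACH it was -0.18 over sites called in both groups, -0.14 under quantile normalization and -0.10 at like level. The within-gene difference was -0.27 above the median level, -0.15 under quantile normalization and -0.13 at like level. Internal DRACH was -0.033 without a pseudocount and turned to 0.032 above the median level, 0.049 under quantile normalization and 0.038 at like level. Intronic sites were at -0.21 with the pseudocount at the median, -0.13 without one and with library constants removed, and -0.026 above the median level, and turned to 0.10 over sites called in both groups, 0.027 under quantile normalization and 0.051 at like level. With library constants removed the all-site change was -0.16. The removal of library constants and the comparison at like level were chosen after seeing the data.

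After centring, same-numbered deviations of the libraries correlated at 0.12, 0.005 and 0.009, and those with different numbers at -0.061 to 0.056. Centring removes the shift of whole libraries, so a pairing by replicate number in that shift was not tested. With a replicate block, 2935 sites were lower and 8 higher, 1 higher after centring, 956 genes lower, and 2 genes lower and 10 higher after centring. The PCIF1 site turned to 0.45 after centring, 0.48 centred on internal DRACH sites, 0.65 under quantile normalization and 0.33 with library constants removed, and lay between -0.32 (without siScram 1) and 0.23 (without siScram 3) with 1 library left out, also above 0 without siPcif1 2 (0.039). The PCF11 site turned to 0.036, 0.065 and 0.22 in the first 3 of these, and lay between -1.18 (without siPcif1 3) and 0.37 (without siPcif1 1) with 1 library left out, also above 0 without siScram 3 (0.25). After centring on all or on internal DRACH sites MYCN turned to 0.20 and 0.23, TUBB4B to 0.19 and 0.22 and HSP90B1 to 0.046 and 0.075, and under quantile normalization UNC45A turned to 0.037.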
